A study of Arabidopsis thaliana with 4 samples.

Results

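The growth-regulating factor genes GRF1 to GRF9 were read from RNA-seq libraries of the Arabidopsis thaliana mutant tho2-8 and of Col-LUC. The 9 members were taken by locus identifier, and all 9 of the 37573 nuclear loci so chosen were found in the tables and passed the filter on low counts, which 20975 loci passed. The THO complex, of which THO2 is a part, helps to package and export mRNA. There were 4 libraries of polyadenylated RNA from whole 14-day-old plants grown on soil under a long-day light cycle, 2 titled Col-LUC and 2 titled tho2-8. The genotype label reads Col-LUC for every library, so the group was read from the titles, and all 4 libraries share that line's background as far as the labels say. The sources used here give neither the kind of tho2-8 allele nor whether replicates came from separate plants, and the spread behind each p-value is that among these libraries, possibly a technical one.

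GRF proteins are plant-specific transcription factors with a QLQ domain, which binds the GIF coactivators, and a WRC domain, which binds DNA. In young leaves they keep cells dividing, and the microRNA miR396, which builds up as organs mature, cuts or silences most of their messages. In Arabidopsis THO subunits have been tied to small RNA production. In a whole plant, fewer cells that express a GRF and less GRF RNA per cell cannot be told apart.

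The sequences below show how the members pair with miR396, since the site separates 7 members from GRF5 and GRF6. They were read from the RefSeq TAIR10.1 genome. The 2 mature forms differ in their last base, and capitals mark the seed, bases 2 to 8.
ath-miR396a-5p: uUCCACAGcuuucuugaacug
ath-miR396b-5p: uUCCACAGcuuucuugaacuu
In the members, capitals mark bases that pair with miR396a when 1 base, letter 15 of the site, is left unpaired. All are written 5′ to 3′ on the strand of the gene.
GRF1, chr2:9729944-9729965, plus strand: tcGTTCAAGAAAGCcTGTGGAA
GRF2, chr4:17726404-17726425, minus strand: tcGTTCAAGAAAGCcTGTGGAA
GRF3, chr2:15271745-15271766, minus strand: CcGTTCAAGAAAGCcTGTGGAA
GRF4, chr3:19617293-19617314, minus strand: CcGTTCAAGAAAGCcTGTGGAA
GRF7, chr5:21795145-21795166, plus strand: tcGTTCAAGAAAGCaTGTGGAA
GRF8, chr4:12538649-12538670, plus strand: tcGTTCAAGAAAGCaTGTGGAA
GRF9, chr2:18746292-18746313, plus strand: acGTTCAAGAAAGCtTGTGGAA

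In all 7 the site was 22 nt long and lay within 1 coding exon, and all 11 annotated mRNA models of these genes held it. The unpaired base falls between miRNA bases 7 and 8, at the edge of the seed. It was C in GRF1 to GRF4, A in GRF7 and GRF8, and T in GRF9. Counted from 1 at the site's 5′ end, with the base of the perfect complement first, GRF3 and GRF4 carried the mismatch A2C against miR396a. GRF1, GRF2, GRF7 and GRF8 carried C1T and A2C, of which C1T leaves a G:U pair. GRF9 had 2 mismatches to miR396a and 1 to miR396b. GRF7 and GRF8 shared 1 site sequence, which differs from that of GRF1 and GRF2 at the unpaired letter only.

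GRF5 and GRF6 held no match with 4 or fewer mismatches, a bulge counted as 1. Placed by translation beside GRF1, the GRF5 codons at chr3:4609155-4609176 on the plus strand broke the run of pairs opposite the seed. The 22 bases had 8 mismatches of 21 to miR396a.
GRF5: CcGTgCcAGAAAatcTcTtGAt
In GRF6 the same place, chr2:2426780-2426807 on the plus strand, held a run of 12 bases of the GRF1 site, here in capitals, but shifted along the gene and ending before most of the letters that pair with the seed.
GRF6: ccgttcttccTCAAGAAAGCCTcctcct
Among 31337 loci with an annotated mRNA, 22 (0.0702%) had a match with 3 or fewer mismatches plus bulge, the 7 GRF genes and 15 others. With 2 or fewer there were 3, which were GRF3, GRF4 and GRF9. A match of this kind is a description of letters and was not tested as a site of cutting.

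**Figure D1:**
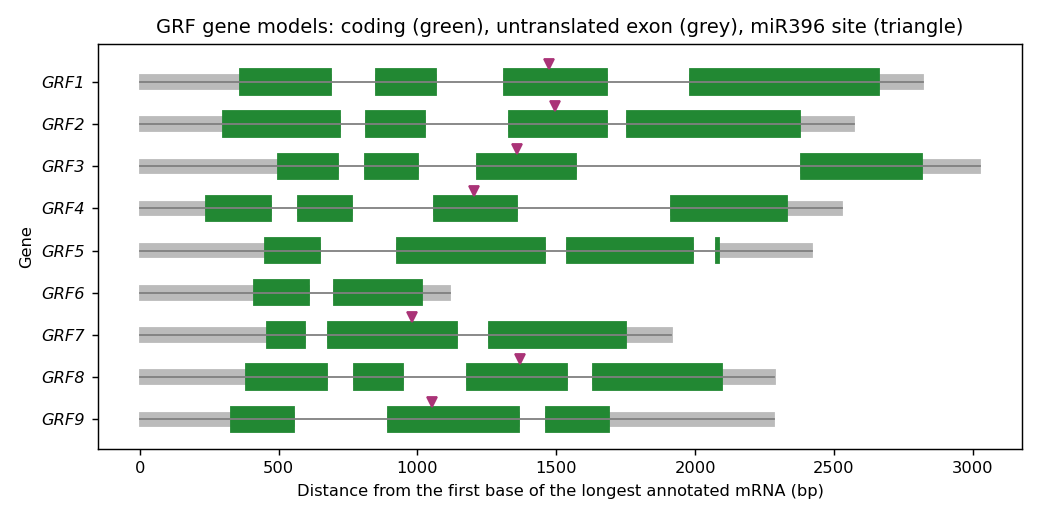
Gene models of the 9 GRF genes in TAIR10.1, drawn to scale against distance in bp from the first base of the longest annotated mRNA, with coding exons in green, untranslated exon parts in grey and introns as lines. Triangles mark the miR396 site, which lies in exon 3 of GRF1 to GRF4 and GRF8 and in exon 2 of GRF7 and GRF9, while GRF5 and GRF6 have no mark.

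Library totals were 17119534 and 17659035 counts for Col-LUC and 17877941 and 17838028 for tho2-8. The GRF genes together held 1622 and 1140 counts in Col-LUC and 1982 and 2079 in tho2-8. THO2 read 82.1 and 84.6 CPM in Col-LUC against 109 and 100.1 CPM in tho2-8, where CPM is the count scaled to library size by TMM, and was not called (edgeR, adjusted p = 0.34). On that scale 3 counts equal 0.165 to 0.177 CPM. Over all genes edgeR's quasi-likelihood test called 2 of 20975 (0.00954%) at an adjusted p under 0.05, and 3269 had an unadjusted p under 0.05. The marker lists placed the libraries apart within genotypes as well. Floral organ markers summed to 14.0 and 50.4 CPM in Col-LUC replicates 1 and 2 and to 28.8 and 20.2 CPM in tho2-8, with 8 of 8 detected. Root markers summed to 4023 and 2766 CPM in Col-LUC and to 2090 and 2543 CPM in tho2-8, with 10 of 10 detected. PYK10, picked for its level, made up most of each sum, at 3884 and 2658 CPM in Col-LUC and 1968 and 2416 CPM in tho2-8. Of 6 shoot meristem markers 3 passed the filter on low counts. CLV3 was at 0 in every library, and WUS and UFO held 0 to 3 and 0 to 9 counts. All 5 leaf primordium markers were detected.

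Of the 9 GRF genes 0 passed edgeR's test over all genes and DESeq2 called 0, where it called 2.65% of the genes it tested. By edgeR 3 of the 9 were higher in tho2-8 at an unadjusted p under 0.05 (GRF8, GRF3 and GRF2), beside 8.40% of all tested genes, and 0 were lower, beside 7.18%. Both tho2-8 libraries lay above both Col-LUC libraries for 6 of the 9, beside 25.8% of tested genes, and below both for 0, beside 22.8%. The 6 were GRF2, GRF3, GRF4, GRF7, GRF8 and GRF9, and each has a miR396 site. For GRF4, GRF7 and GRF9 exact 95% Poisson intervals, which cover counting error only, overlapped between the nearest libraries of the 2 genotypes. The log2 fold change was above 0 for 8 of 9, beside 51.5% of tested genes, and its median was 0.48, beside 0.01 over all tested genes. It was above 0 in 7 of 7 members with the site, with a median of 0.66. The pair without the site stood at 0.47 for GRF5 and -0.14 for GRF6. No test was made between members with and without the site.

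**Figure D2:**
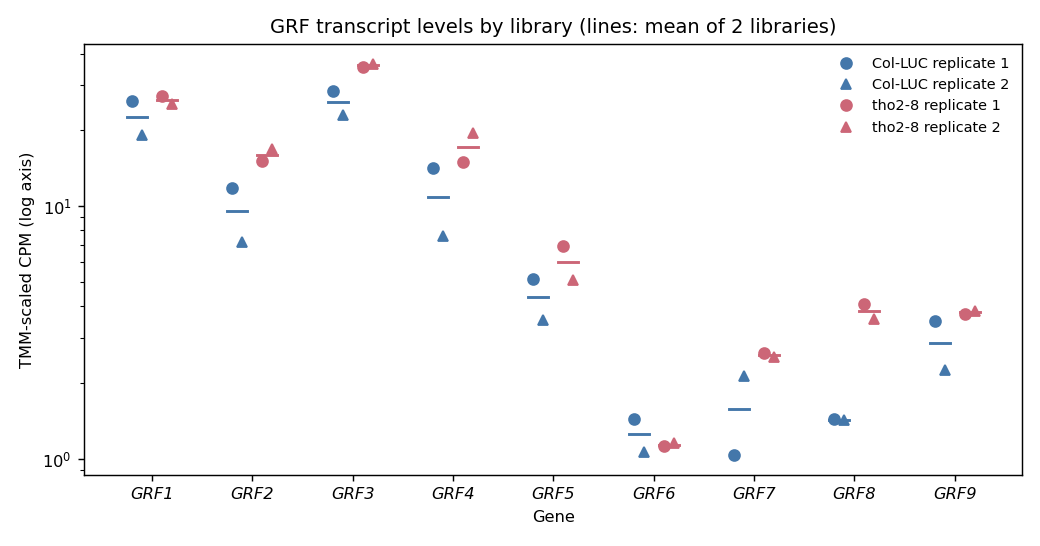
Levels of the 9 GRF genes in each library, as TMM-scaled CPM on a log axis, with Col-LUC in blue, tho2-8 in red, circles for replicate 1, triangles for replicate 2 and lines for the mean of 2 libraries. The GRF8 groups stand furthest apart for their spread, while for GRF1 to GRF5 and GRF9 Col-LUC replicate 1 lies closer to the tho2-8 mean than Col-LUC replicate 2 does.

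GRF8 (AT4G24150, chr4:12535972-12539576, plus strand) showed the widest difference of the family. It stood at 1.43 and 1.42 CPM in Col-LUC against 4.08 and 3.57 CPM in tho2-8. The groups did not overlap, and the Col-LUC libraries were nearly equal. The log2 fold change was 1.42 ± 0.40 (SE, n = 2 per genotype), a 2.68-fold difference, with an adjusted p of 0.198 by edgeR and an unadjusted p of 0.00918. The values rest on 25 and 24 counts in Col-LUC and 73 and 65 in tho2-8. Exact 95% Poisson intervals, which cover counting error only, ran from 15.4 to 36.9 counts over the Col-LUC libraries and from 50.2 to 91.8 over the tho2-8 libraries. Against Col-LUC replicate 1 alone the tho2-8 mean was 1.42 higher on the log2 scale and against replicate 2 alone 1.43. Across 14 alternatives of the fit the log2 fold change ran from 1.29 to 1.52, the adjusted p from 0.129 to 0.413, and the unadjusted p was under 0.05 in 14. Where 1 library is left out, here and below, the genotype with 1 library left is assumed to vary like the other, whose pair alone gives the spread.

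GRF7 (AT5G53660, chr5:21794177-21796092, plus strand), described in Arabidopsis as a repressor of the drought gene DREB2A, has the same site sequence as GRF8. It stood at 1.03 and 2.13 CPM in Col-LUC against 2.63 and 2.53 CPM in tho2-8. The tho2-8 libraries were close to each other, and Col-LUC replicate 2 lay nearer to them than to Col-LUC replicate 1. GRF7 had a log2 fold change of 0.71 ± 0.49 (SE, n = 2 per genotype; edgeR, adjusted p = 0.53). It was 1.32 without Col-LUC replicate 2 and 0.28 without Col-LUC replicate 1. GRF7 was the one member with a higher level in Col-LUC replicate 2 than in replicate 1. It shares 244 bp with the non-coding locus AT5G08015 on the other strand, which held 0 counts in every library.

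GRF1, GRF2 and GRF3 act redundantly in leaf growth. GRF3 (AT2G36400, chr2:15270088-15273115, minus strand) read 28.5 and 23.0 CPM in Col-LUC against 35.3 and 36.6 CPM in tho2-8. Both tho2-8 libraries lay above both Col-LUC libraries. GRF3 had a log2 fold change of 0.48 ± 0.17 (SE, n = 2 per genotype), the smallest SE in the family, with an adjusted p of 0.268 by edgeR. It was 0.33 without Col-LUC replicate 2 and 0.65 without Col-LUC replicate 1. GRF3 overlaps SBE2.1 on the other strand by 5 bp, and SBE2.1 stood in the other order, at 101 CPM in Col-LUC against 58.4 CPM in tho2-8. DESeq2 called SBE2.1 lower (adjusted p = 0.0114), and edgeR did not call it (adjusted p = 0.128).

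GRF2 (AT4G37740, chr4:17725337-17727909, minus strand) read 11.8 and 7.20 CPM in Col-LUC against 15.0 and 16.8 CPM in tho2-8. The groups did not overlap, though the gap between the Col-LUC libraries was wider than that between Col-LUC replicate 1 and tho2-8 replicate 1. For GRF2 the log2 fold change was 0.74 ± 0.28 (SE, n = 2 per genotype; edgeR, adjusted p = 0.286). It was 0.43 without Col-LUC replicate 2 and 1.14 without Col-LUC replicate 1. GRF1 (AT2G22840, chr2:9728480-9731301, plus strand) read 26.0 and 19.1 CPM in Col-LUC against 27.1 and 25.3 CPM in tho2-8. Its groups overlapped, since tho2-8 replicate 2 lay below Col-LUC replicate 1. GRF1 had a log2 fold change of 0.22 ± 0.20 (SE, n = 2 per genotype; edgeR, adjusted p = 0.639), and 0.01 without Col-LUC replicate 2.

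GRF4 (AT3G52910, chr3:19615977-19618507, minus strand), which also promotes leaf and cotyledon growth, stood at 14.1 and 7.62 CPM in Col-LUC against 14.9 and 19.5 CPM in tho2-8. The groups did not overlap, but Col-LUC replicate 1 and tho2-8 replicate 1 were close. For GRF4 the log2 fold change was 0.66 ± 0.32 (SE, n = 2 per genotype; edgeR, adjusted p = 0.377). It was 0.28 without Col-LUC replicate 2 and 1.17 without Col-LUC replicate 1. GRF9 (AT2G45480, chr2:18745249-18747634, plus strand), described as a restraint on leaf size, stood at 3.50 and 2.24 CPM in Col-LUC against 3.75 and 3.85 CPM in tho2-8. GRF9 had a log2 fold change of 0.40 ± 0.39 (SE, n = 2 per genotype; edgeR, adjusted p = 0.658), and 0.12 without Col-LUC replicate 2. The GRF9 values rest on 61 and 38 counts in Col-LUC and 67 and 70 in tho2-8. GRF9 shares 126 bp with AUR3 on the other strand, which stood at 2.82 CPM in Col-LUC against 3.33 CPM in tho2-8.

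The members without a miR396 site overlapped between genotypes. GRF5 (AT3G13960, chr3:4608076-4610497, plus strand), which promotes leaf cell proliferation, stood at 5.16 and 3.54 CPM in Col-LUC against 6.93 and 5.11 CPM in tho2-8. Its log2 fold change was 0.47 ± 0.35 (SE, n = 2 per genotype; edgeR, adjusted p = 0.558), within the range of the members with the site. GRF6 (AT2G06200, chr2:2426176-2427355, plus strand) read 1.43 and 1.06 CPM in Col-LUC against 1.12 and 1.15 CPM in tho2-8. Its log2 fold change was -0.14 ± 0.49 (SE, n = 2 per genotype; edgeR, adjusted p = 0.924), and 0.10 without Col-LUC replicate 1. These GRF6 values rest on 18 to 25 counts per library.

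**Figure D3:**
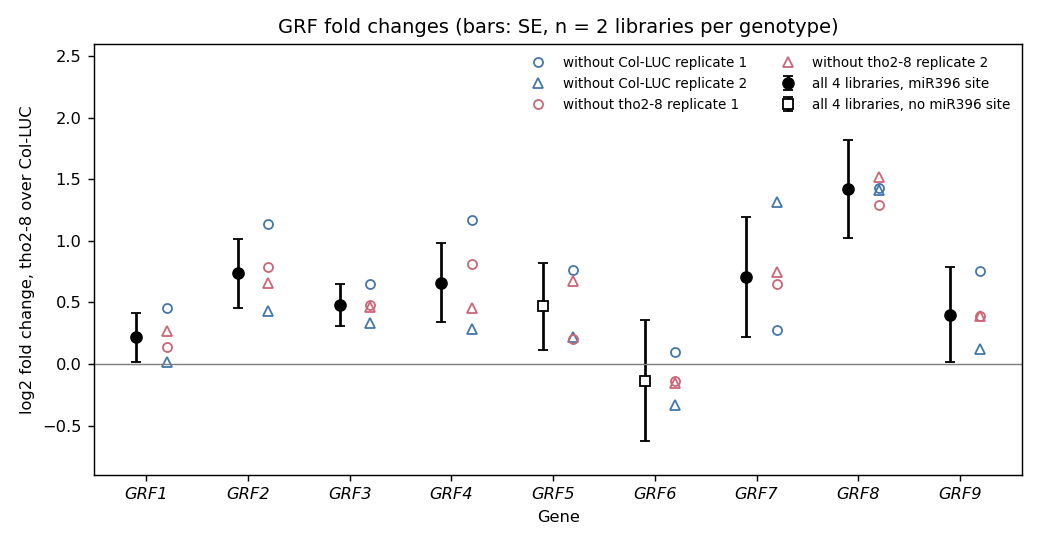
Log2 fold change of each GRF gene, tho2-8 over Col-LUC, with bars of 1 SE from edgeR (n = 2 libraries per genotype), filled circles for members with a miR396 site, open squares for members without, and small open symbols for fits without 1 library. GRF8 stays between 1.29 and 1.52 whichever library is left out, while GRF2, GRF4 and GRF7 spread from under 0.5 to over 1.

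Levels were compared between genes per kb of exon. In Col-LUC the order was GRF3 at 13.5 ± 2.07 CPM per kb (SD, n = 2), GRF1 at 10.7 ± 2.29, GRF4 at 6.86 ± 2.90, GRF2 at 4.52 ± 1.55, GRF5 at 2.20 ± 0.58, GRF9 at 1.47 ± 0.46, GRF6 at 1.14 ± 0.24, GRF7 at 0.918 ± 0.45 and GRF8 at 0.689 ± 0.0055. No neighbours in this order were separated across all libraries, since each gene's lowest value lay under the next gene's highest. Within single libraries GRF3 was above GRF1, GRF4 above GRF2, GRF2 above GRF5, GRF5 above GRF9 and GRF9 above GRF6 in 4 of 4, and GRF1 above GRF4 in 3 of 4. The last neighbours went the other way in most libraries, with GRF6 above GRF7 in 1 of 4 and GRF7 above GRF8 in 1 of 4. In tho2-8 GRF8 stood at 1.85 ± 0.17 CPM per kb (SD, n = 2) and ranked seventh, above GRF7 and GRF6, the latter at 1.04. GRF1 and GRF3 together made up 55.9% and 60.0% of the summed GRF level per kb in Col-LUC and 54.2% and 51.7% in tho2-8. GRF8 made up 1.42% and 1.95% in Col-LUC and 3.41% and 2.87% in tho2-8.

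The Col-LUC libraries differed from each other across the family. In 8 of the 9 members Col-LUC replicate 2 was lower than replicate 1, beside 48.6% of all tested genes, by up to 0.89 on the log2 scale for GRF4. GRF8 differed by 0.02. Cell division genes followed the same order, with 16 of 16 tested members lower in Col-LUC replicate 2 and a summed level of 316 and 224 CPM in Col-LUC replicates 1 and 2 against 277 and 332 CPM in tho2-8. Floral organ markers stood in the other order, with AP1, a floral identity gene, at 2.01 and 10.6 CPM in Col-LUC replicates 1 and 2 and SEP3 at 2.52 and 13.7 CPM. Root markers were lower in Col-LUC replicate 2 than in replicate 1 for 9 of 10 tested members. Leaf primordium markers were so for 0 of 5, shoot meristem markers for 0 of 3 and floral organ markers for 0 of 8. The summed levels of the cell division and floral lists overlapped between genotypes. Among single genes 4 of 16 cell division genes lay above both Col-LUC libraries in both tho2-8 libraries, beside 25.8% of tested genes. For floral markers 1 of 8, PI, lay below both, beside 22.8%. The part of these differences in the GRF values was not tested. Averaged over the family as log2(CPM + 1) and set against the mean of Col-LUC, GRF levels were 0.15 and -0.15 for Col-LUC and 0.47 and 0.47 for tho2-8.

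**Figure D4:**
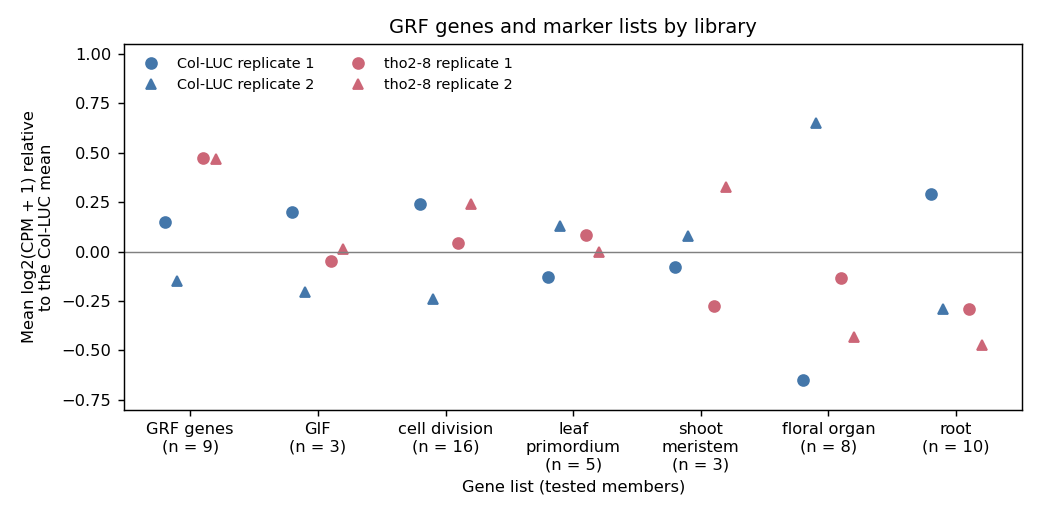
Mean log2(CPM + 1) of the tested members of each list in each library, relative to the Col-LUC mean, with Col-LUC in blue, tho2-8 in red, circles for replicate 1 and triangles for replicate 2. GRF genes in tho2-8 stand at 0.47 and 0.47, above both Col-LUC libraries, while the means of the cell division, floral, leaf primordium and shoot meristem lists overlap between genotypes.

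Of the GIF coactivators, which bind the QLQ domain, 0 of 3 passed and 0 had an unadjusted p under 0.05, beside 15.6% of tested genes. GIF1, also named AN3, read 26.8 and 12.9 CPM in Col-LUC and averaged 25.2 CPM in tho2-8, with a log2 fold change of 0.34 ± 0.32 (SE, n = 2 per genotype). GIF2 had a log2 fold change of -0.11 ± 0.15 and GIF3 of -0.43 ± 0.31. Both tho2-8 libraries lay below both Col-LUC libraries for 1 of the 3, GIF3, beside 22.8% of tested genes. They lay above both for 0, beside 25.8%. Chromatin remodelling subunits that work with GRF and GIF proteins numbered 8 tested. Of the 8, 0 had an unadjusted p under 0.05 in either direction, beside 15.6% of tested genes. The list's median log2 fold change was 0.05. SWP73B stood at 0.29 ± 0.15, SWP73A at -0.22 ± 0.22, ARP4 at -0.13 ± 0.14 and SYD at 0.14 ± 0.16. The miR396 loci are not analysed here.

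Among transcription factor genes that act upstream of miR396, the CIN-type TCP genes, 0 of 5 passed. In this list 1 was higher at an unadjusted p under 0.05, beside 8.40% of tested genes. TCP2 had a log2 fold change of 0.42 ± 0.16, TCP3 of -0.82 ± 0.46, TCP24 of 0.21 ± 0.17 and TCP10 of 0.32 ± 0.28. Outside the GRF family bHLH74, described as another miR396 target, read 32.4 and 24.9 CPM in Col-LUC and averaged 38.5 CPM in tho2-8. Its log2 fold change was 0.43 ± 0.18 (SE, n = 2 per genotype; edgeR, adjusted p = 0.315), and both tho2-8 libraries lay above both Col-LUC libraries. Such a position was held by 25.8% of tested genes. The best match of bHLH74 to miR396 had 5 mismatches, 3 of them G:U pairs. Of the 15 other loci with a match of 3 or fewer mismatches plus bulge, 12 were tested. An unadjusted p under 0.05 was found for 0 of the 12, beside 15.6% of tested genes. The 12 had a median log2 fold change of -0.13, with a range from -0.25 to 0.47, and 4 were above 0. The smallest p among them was that of AT1G76170, annotated as a tRNA biosynthesis protein of the TtcA kind, at 0.47 ± 0.23 (SE, n = 2 per genotype; edgeR, adjusted p = 0.373), with both tho2-8 libraries above both Col-LUC libraries. AT3G01790, a ribosomal protein gene of the L13 family, stood at -0.25 ± 0.18, the cysteine proteinase gene AT3G19400 at -0.16 ± 0.16 and the thioredoxin gene ACHT5 at 0.17 ± 0.17. Of the 12, both tho2-8 libraries lay above both Col-LUC libraries for 1, AT1G76170, beside 25.8% of tested genes. They lay below both for 2, among them AT3G19400, beside 22.8%.

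Of 4 genes described downstream of GRFs 0 passed and 1 was higher at an unadjusted p under 0.05, beside 8.40% of tested genes. DREB2A, a drought and heat response factor that GRF7 is described to repress, stood at 1.95 and 1.36 CPM in Col-LUC against 2.80 and 5.0 CPM in tho2-8. Its log2 fold change was 1.23 ± 0.47 (SE, n = 2 per genotype; edgeR, adjusted p = 0.286). The meristem homeobox genes KNAT2, KNAT1 and STM had log2 fold changes of 0.77 ± 0.54, 0.50 ± 0.41 and 0.27 ± 0.38, and all 3 overlapped between genotypes. In all 3 tho2-8 replicate 1 lay below both Col-LUC libraries and tho2-8 replicate 2 above both. KNAT1 read 55.1 and 49.2 CPM in Col-LUC against 39.7 and 107.6 CPM in tho2-8. Its log2 fold change was 1.02 without tho2-8 replicate 1, the library in which it was lowest.

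Of 17 tested organ growth regulators 0 passed edgeR's test and 2 were higher at an unadjusted p under 0.05, beside 8.40% of tested genes. DESeq2 called 1 higher, where it called 2.65% of the genes it tested in either direction. The list's median log2 fold change was 0.04. The DESeq2 call was KIX8, an adaptor that limits divisions of leaf meristemoid cells, which stood at 12.6 and 15.4 CPM in Col-LUC against 29.0 and 24.2 CPM in tho2-8. Its log2 fold change was 0.93 ± 0.20 (SE, n = 2 per genotype; edgeR, adjusted p = 0.142; DESeq2, adjusted p = 0.0459). ARGOS, an auxin-induced promoter of organ growth, stood at 6.08 and 3.84 CPM in Col-LUC against 7.66 and 19.4 CPM in tho2-8, with a log2 fold change of 1.45 ± 0.47. For ARGOS tho2-8 replicate 1 lay closer to Col-LUC replicate 1 than to tho2-8 replicate 2, and without tho2-8 replicate 1 it was called at 1.94 (edgeR, adjusted p = 0.00943). ARF2 had a log2 fold change of 0.54 ± 0.23 and DA1 of 0.36 ± 0.16. Of 16 cell division genes 0 passed and 1 was higher at an unadjusted p under 0.05, beside 8.40% of tested genes. The list's median log2 fold change was 0.09. CYCA2;3 stood at 0.67 ± 0.25, MCM5 at 0.41 ± 0.22, MCM2 at 0.32 ± 0.24 and CYCD3;1 at 0.34 ± 0.29. Among leaf primordium markers AS1 stood at 0.38 ± 0.14, AS2 at -0.43 ± 0.32, KAN1 at 0.20 ± 0.20 and FIL at -0.14 ± 0.21. Among shoot meristem markers CLV1 stood at -0.09 ± 0.17 and CUC2 at 0.06 ± 0.49. Among floral organ markers AP1 stood at -1.96 ± 0.78, SEP1 at 0.85 ± 0.50, PI at -0.55 ± 0.36 and SEP3 at -0.96 ± 0.69. AP1, SEP1 and SEP3 overlapped between genotypes. AP1 read 2.01 and 10.6 CPM in Col-LUC against 2.18 and 1.04 CPM in tho2-8. For SEP3 these values were 2.52 and 13.7 CPM against 4.53 and 3.79 CPM. Among root markers CASP1 stood at -1.33 ± 0.42, CASP2 at -1.36 ± 0.46, COBL9 at -1.02 ± 0.42 and SCR at 0.33 ± 0.14. Of the 10 root markers 3 were lower at an unadjusted p under 0.05, beside 7.18% of tested genes, and 1 higher, beside 8.40%. Both tho2-8 libraries lay below both Col-LUC libraries for 5 of the 10, beside 22.8%, and above both for 2, beside 25.8%. Of these marker lists edgeR called 0 genes, and DESeq2 called CASP1 lower (adjusted p = 0.0411). Without tho2-8 replicate 1 edgeR called CASP1 at -2.0 and CASP2 at -2.09.

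Profiles over the 4 libraries were taken as log2(CPM + 1), centred on each gene's mean. Nearest to the mean GRF profile, by Euclidean distance, were GRP23 at a distance of 0.0426, AT1G67690 at 0.0468 and AT1G47950 at 0.0479. The median distance over all tested genes was 0.629. GRP23 stood at 21.8 and 18.3 CPM in Col-LUC against 28.0 and 27.8 CPM in tho2-8. AT1G67690 stood at 14.8 and 11.6 CPM against 18.9 and 18.0 CPM. AT1G47950 rests on 1 to 11 counts per library, under 1 CPM, where adding 1 shrinks differences. Its log2 fold change by edgeR was 1.55 ± 0.85 (SE, n = 2 per genotype). A profile over 4 libraries holds few values, and the number of genes that share it was not counted.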

How the data were processed

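Libraries came from total RNA and a stranded mRNA kit, per the labels' protocols. The authors deposited 1 table of unnormalised estimated counts per library. The submitters' processing notes name build TAIR10, DESeq2 1.24.0, featureCounts 1.6.3, HISAT2 2.1.0 and Trimmomatic. The sources used here do not give how strand or shared reads were handled, so values of genes that overlap one on the other strand are uncertain. Among named genes these are GRF1, GRF3, GRF7, GRF9, GIF2, GIF3, bHLH74, DREB2A, TCP3, CYCA2;3, AS1, KAN1, SEP1, CASP1, PYK10, AT3G01790, ACHT5, GRP23, SBE2.1, AUR3 and AT5G08015. CYCD3;1 and AT1G47950 overlap a gene on the same strand. About 2.06% to 2.15% of loci held fractional counts. The GRF genes held whole counts in all 4 libraries.

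Counts were rounded to whole numbers, and organelle loci, at 0 throughout, were left out. edgeR 4.0.16 (R 4.3.3) filtered genes with filterByExpr, scaled them by TMM and tested genotype, the only term, with glmQLFit and glmQLFTest and Benjamini-Hochberg adjustment over all 20975 tested genes. SEs were derived from the F statistic. The design had assumed whole counts. The test was checked on simulated data. Alternatives used DESeq2 1.42.0, limma-voom (limma 3.58.1), other size factors, filters, rounding and dispersion settings, a replicate block and leaving out each library. A block with the replicate numbers crossed was added after seeing the data.

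Coordinates are those of the TAIR10.1 annotation, which held all 37573 nuclear loci; the tables hold none. Levels per kb used the union of annotated exons. miR396 sites were searched on the longest mRNA with at most 1 unpaired target base. Named genes were all GRF members, every member of the GIF, other-target and downstream lists, up to 4 members with the smallest p of each other list, and the 3 nearest profiles. Outside this rule THO2 was named as the mutated gene, SBE2.1, AUR3 and AT5G08015 as genes that overlap a GRF, and PYK10 after its values were seen. The members and lists were chosen with earlier results of these data known.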

Additional observations from a re-analysis of the deposited data

How the results depend on the processing

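Each GRF gene kept its direction and stayed above an adjusted p of 0.05 in all 14 alternatives, except that GRF6 turned to 0.10 without Col-LUC replicate 1, within a range of -0.33 to 0.10 over the fits with 1 library left out. The unadjusted p was under 0.05 in 14 alternatives for GRF8, 12 for GRF2, 10 for GRF3 and 3 for GRF4. Leaving out 1 library moved GRF2 between 0.43 and 1.14, GRF4 between 0.28 and 1.17 and GRF7 between 0.28 and 1.32. The count of genes called over all genes was 560 with DESeq2, 1 with limma-voom and 57 without the filter on low counts, and from 0 to 672 with 1 library left out. It was 0 without either Col-LUC replicate, 672 without tho2-8 replicate 1 and 96 without tho2-8 replicate 2. Here the spread comes from the pair of the other genotype alone, and the calls assume that the lone library varies like that pair. With DESeq2 1 organ growth regulator (KIX8) and 1 root marker (CASP1) were called. Without tho2-8 replicate 1, 1 downstream gene (KNAT1), 1 organ growth regulator (ARGOS) and 2 root markers (CASP1 and CASP2) were called, and with 1 library left out these counts ran from 0 to 1, 0 to 1 and 0 to 2. The titles share replicate numbers, but nothing says that they pair the libraries. Deviations of same-numbered libraries from their genotype means were weakly and inversely correlated across genes (-0.151). With the replicate block 2 genes were called and 0 GRF genes. With the numbers crossed, a choice made after seeing the data, 510 genes were called, 2 of them organ growth regulators (ARGOS and KIX8), and 0 GRF genes. This crossed fit is among the 14 alternatives. The level of GRF8 in Col-LUC was 0.765 CPM per kb by its longest transcript in place of the union of exons. GRF6, GRF7, GRF8 and GRF9 rest on 18 to 73 counts per library, which limits what could be detected.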
